A study of Homo sapiens with 6 samples.

Results

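The miR-181 family is represented here by 6 mature miRNAs: the guides hsa-miR-181a-5p, hsa-miR-181b-5p, hsa-miR-181c-5p and hsa-miR-181d-5p, and the passenger arms hsa-miR-181a-3p and hsa-miR-181a-2-3p. They were chosen by name and not by their measured values, although earlier results of these data were known. All 6 are listed among the 2588 mature human miRNAs of the deposited table. The cells were Huh7, a human hepatoma line that secretes alpha-fetoprotein and whose source the labels give as liver cancer. In both groups the cells were transfected by Lipofectamine 2000 and total RNA was taken after 48 h. The overexpression group (3 samples) received the plasmid for the circular RNA hsa_circ_0098181, and the control group (3 samples) received a control plasmid. The miRNAs of each sample were sequenced, which asks whether the level of any of them differs when hsa_circ_0098181 is overexpressed. The labels do not say that the replicates were separate cultures, so p-values measure only the spread between these samples, which may be technical.

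The miR-181 family is known in the liver for its high level in hepatocellular carcinoma cells that carry EpCAM and alpha-fetoprotein and have stem cell properties, where it represses the differentiation factors CDX2 and GATA6 and the Wnt inhibitor NLK. A guide is the strand of the miRNA duplex that is usually kept in Argonaute and pairs with mRNAs through its seed, whereas the passenger strand is usually degraded. Guides with a common seed can bind many of the same mRNAs.

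Mature sequences from RefSeq (GRCh38.p14) were found for 6 of 6 members and 5 of 5 relatives (the other miR-181 arms and hsa-miR-4262), and they are shown because seed and arm decide which members belong together. Each is written 5′ to 3′ with the seed, bases 2 to 8, in capitals. The guides and the passenger arms of miR-181a and miR-181b are:
hsa-miR-181a-5p: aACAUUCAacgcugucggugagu
hsa-miR-181b-5p: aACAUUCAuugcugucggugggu
hsa-miR-181c-5p: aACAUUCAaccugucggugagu
hsa-miR-181d-5p: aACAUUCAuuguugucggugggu
hsa-miR-181a-3p: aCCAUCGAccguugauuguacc
hsa-miR-181a-2-3p: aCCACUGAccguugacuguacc
hsa-miR-181b-3p: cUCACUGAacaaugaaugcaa
hsa-miR-181b-2-3p: cUCACUGAucaaugaaugca

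The 4 guides shared the seed ACAUUCA. Among 2370 mature human miRNA names with a sequence, the only other holder of this seed was hsa-miR-4262, which had 0 counts in all 6 libraries. Counted from the 5′ end, hsa-miR-181b-5p differed from hsa-miR-181a-5p by A9U, C10U and A21G. hsa-miR-181d-5p differed from hsa-miR-181b-5p by C12U alone, and hsa-miR-181c-5p was hsa-miR-181a-5p without the base at position 11. The passenger arms of miR-181a had different seeds, since hsa-miR-181a-2-3p differed from hsa-miR-181a-3p by U5C, C6U and U16C, of which U5C and C6U lie in the seed. How reads that match several miRNAs were counted is not given in the sources used here, so the levels of hsa-miR-181c-5p and hsa-miR-181d-5p, each 1 base away from a far more abundant guide, are uncertain to that extent.

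The precursors lie in 3 clusters (GRCh38, GENCODE 29), all in introns. MIR181A1 (chr1:198859044-198859153) and MIR181B1 (chr1:198858873-198858982) lie 61 bases apart on the minus strand, in an intron of the long noncoding RNA MIR181A1HG. MIR181A2 (chr9:124692442-124692551) and MIR181B2 (chr9:124693710-124693798) lie 1158 bases apart on the plus strand, in an intron of MIR181A2HG and, on the opposite strand, of the nuclear receptor gene NR6A1. MIR181C (chr19:13874699-13874808) and MIR181D (chr19:13874875-13875011) lie 66 bases apart on the plus strand in an intron of NANOS3, a germ cell gene. The guides hsa-miR-181a-5p and hsa-miR-181b-5p are each made from a precursor on chromosome 1 and another on chromosome 9, which their reads cannot tell apart. Their passenger arms can: hsa-miR-181a-3p and hsa-miR-181b-3p come from chromosome 1, and hsa-miR-181a-2-3p and hsa-miR-181b-2-3p from chromosome 9.

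The overexpression libraries held 7978507, 8469016 and 8289232 counts and the control libraries 10786295, 8677214 and 7144798. Control replicate 3 stood apart. Over 192 miRNAs with a mean of at least 50 CPM (counts scaled to a library of 1000000), its median absolute log2 difference was 0.21 from control replicate 1 and 0.20 from control replicate 2, which differed from each other by 0.055. It differed from overexpression replicates 1, 2 and 3 by 0.13, 0.21 and 0.17, so it lay closer to replicates 1 and 3 of that group than to either other control. The overexpression libraries differed from each other by 0.088 to 0.12. The fold changes of the members are therefore given with and without control replicate 3, a choice of library made after the data were seen. The labelled cell line was checked by miR-122-5p, the most typical hepatocyte miRNA, which averaged 322041 CPM.

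All 6 members were detected in every library, at levels spread over more than 2 orders of magnitude. Together they made up 0.125% ± 0.0121 of the counts (SD, n = 6), from 0.114% in control replicate 1 to 0.149% in control replicate 3. hsa-miR-181a-5p, the guide best known from lymphocyte development, was the most abundant at 498 ± 70.3 CPM (SD, n = 6) and ranked 85 among all miRNAs by mean level. hsa-miR-181a-2-3p (260 ± 16.5 CPM), hsa-miR-181a-3p (252 ± 14.3 CPM) and hsa-miR-181b-5p (238 ± 29.7 CPM) ranked 109, 110 and 112. hsa-miR-181d-5p averaged 5.05 ± 0.553 CPM (rank 377) and hsa-miR-181c-5p 1.40 ± 0.397 CPM (rank 522). The guides of the chromosome 19 cluster were thus the scarce members, with 71 counts of hsa-miR-181c-5p and 259 of hsa-miR-181d-5p over all 6 libraries.

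The order of the levels was the same in all 6 libraries at its ends and not in its middle. At the lower end this does not cover how reads that match several miRNAs were counted. hsa-miR-181a-5p exceeded hsa-miR-181a-2-3p in 6 of 6 libraries, by 1.92-fold (log2 ratio 0.93 ± 0.11, SD, n = 6). hsa-miR-181a-2-3p and hsa-miR-181a-3p did not differ beyond their spread (log2 ratio 0.045 ± 0.11, higher in 3 of 6 libraries). Nor did hsa-miR-181a-3p and hsa-miR-181b-5p (0.091 ± 0.17, higher in 4 of 6). hsa-miR-181b-5p exceeded its sequence neighbour hsa-miR-181d-5p by 47.0-fold (log2 ratio 5.54 ± 0.20), and hsa-miR-181d-5p exceeded hsa-miR-181c-5p by 3.62-fold (1.85 ± 0.32), both in 6 of 6 libraries. The variation of hsa-miR-181c-5p between libraries (coefficient of variation 28.4%) was no larger than counting alone gives at its depth (29.1%). That of hsa-miR-181a-5p was 14.1%, or 6.26% without control replicate 3, against a counting error of 1.54%.

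Read as a single seed, the 4 guides summed to 768, 703 and 706 CPM in the overexpression libraries and to 646, 698 and 929.8 CPM in the control libraries. Control replicate 3 was the highest of all and control replicate 1 the lowest, so the groups overlapped, with means of 726 ± 36.3 and 758 ± 151 CPM (SD, n = 3 each). Leaving out control replicate 3, the control mean was 672 ± 36.2 CPM (SD, n = 2). With TMM factors the order of the means was the opposite, at 755 ± 21.3 CPM with hsa_circ_0098181 and 725 ± 114 CPM in the controls (SD, n = 3 each). The shares of the abundant guides in this seed pool were steady. hsa-miR-181a-5p supplied 67.1% ± 0.566 of it and hsa-miR-181b-5p 32.1% ± 0.480 (SD, n = 6), while hsa-miR-181d-5p supplied 0.689% ± 0.0971 and hsa-miR-181c-5p 0.191% ± 0.0564. The share of hsa-miR-181c-5p was 0.261%, 0.202% and 0.239% in the overexpression libraries and 0.158%, 0.182% and 0.105% in the controls, without overlap, and that of hsa-miR-181d-5p ran from 0.527% to 0.800%.

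The members named passenger arms were not scarce for miR-181a. Summed over both precursors, its 3p arms reached 511 ± 24.6 CPM against 498 ± 70.3 CPM for hsa-miR-181a-5p (SD, n = 6). The 5p arm held 50.8%, 48.2% and 49.1% of the miR-181a counts in the overexpression libraries and 46.4%, 47.3% and 53.1% in the control libraries, so that each library lay near an even split. The larger arm was not the same in every library. On mean CPM over all 6 libraries, miR-181a had the most even arm balance among 177 miRNAs. All 177 had counts for both arms and at least 10 CPM in the larger arm. Their median minor arm held 2.48% of the counts, and in 10 of them (5.65%) it held more than 40%, a comparison chosen after its values were seen.

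For miR-181b the 5p arm dominated, with 83.5% ± 1.71 of the counts (SD, n = 6), or 5.07 times the summed level of hsa-miR-181b-3p and hsa-miR-181b-2-3p. For miR-181c, at very low counts, hsa-miR-181c-5p held 50%, 35.3% and 51.9% in the overexpression libraries and 32.4%, 34.4% and 29.2% in the controls, with a mean of 38.8% ± 9.61 (SD, n = 6). For miR-181d only the guide was seen, since hsa-miR-181d-3p had 0 counts in all 6 libraries, which allows up to 0.278 to 0.420 CPM per library (3 counts). The arms of miR-181a and miR-181b were thus divided differently, although both come from the same pair of clusters.

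The 3p arms also show how the counts divide between the precursors of chromosomes 1 and 9. Of the miR-181a passenger counts, 49.2% ± 1.87 (SD, n = 6) came from chromosome 1, with 47.3%, 50.2% and 47.4% in the overexpression libraries and 51.9%, 50.4% and 48.2% in the control libraries. Of the miR-181b passenger counts, 73.3% ± 3.37 came from chromosome 1 (69.7%, 74.6% and 68.6% against 75.6%, 74.2% and 77.0%), and for both the groups overlapped. The chromosome 1 share was thus higher for miR-181b than for miR-181a in each library, although the precursors are neighbours. These shares describe the arms that remained in the cell and not the transcription of either cluster.

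With hsa_circ_0098181 overexpressed, 0 of 6 miR-181 members passed the threshold in edgeR's quasi-likelihood test (adjusted p under 0.05 over all 552 miRNAs tested), and the same held for all miRNAs (0 of 552, 0%). At an unadjusted p under 0.05 the counts were 0 of 6 members and 50 of 552 miRNAs (9.06%), and DESeq2 and limma also called 0 miRNAs. After TMM normalization, which scales each library by a factor for its composition, 5 members were higher and 1 was lower in the overexpression group, with a median log2 fold change of 0.077 against 0.0038 over all miRNAs tested. This direction rests on the scaling: by library size alone the median of all miRNAs was -0.11, that of the members -0.043, and 4 of 6 members were lower. In bulk samples, fewer cells of a type and less RNA per cell cannot be told apart. The values of members and relatives that follow are CPM with TMM factors unless library size is named, given as overexpression replicates 1 to 3 and then control replicates 1 to 3.

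Without control replicate 3, edgeR called 56 of 565 miRNAs (9.91%), 18 higher and 38 lower, but 0 of 6 members. The median log2 fold change of the members was then 0.17. In CPM with TMM factors, hsa-miR-181c-5p and hsa-miR-181d-5p were the members whose groups did not overlap (2 of 6), against 85 of 552 miRNAs (15.4%).

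Of the abundant guides, hsa-miR-181a-5p was at 513, 512 and 494 CPM with hsa_circ_0098181 and at 427, 453 and 579.9 CPM in the controls. Control replicates 1 and 2 lay below every overexpression library and control replicate 3 above them all. The log2 fold change was 0.058 (SE 0.12, 95% confidence interval -0.19 to 0.31, edgeR adjusted p = 0.851). It was 0.18 without control replicate 3 (SE 0.080, interval 0.023 to 0.35), with an unadjusted p of 0.0264 in edgeR and an adjusted p of 0.153. In that fit 119 of 565 miRNAs and 1 of 6 members had an unadjusted p under 0.05 in edgeR. The direction of hsa-miR-181a-5p turned by library size alone (-0.064) and without control replicate 1 (-0.037).

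hsa-miR-181b-5p, made in the same clusters and linked to TGF-beta signalling in hepatocarcinogenesis, followed the same profile over the libraries. It was at 249, 245 and 230.0 CPM with hsa_circ_0098181 and at 211, 218 and 269 CPM in the controls, again with control replicate 3 as the highest. The log2 fold change was 0.053 (SE 0.11, interval -0.19 to 0.30, edgeR adjusted p = 0.863), or 0.15 without control replicate 3 (edgeR adjusted p = 0.349). Its direction turned under the same settings, at -0.067 by library size alone and -0.023 without control replicate 1.

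Of the scarce guides, hsa-miR-181c-5p was at 2.01, 1.54 and 1.75 CPM with hsa_circ_0098181 and at 1.02, 1.23 and 0.901 CPM in the controls. Every overexpression library lay above every control library, on 16, 12 and 14 counts against 11, 11 and 7. Its log2 fold change of 0.74 was the largest of the members, with a wide interval of -0.040 to 1.52 (SE 0.36), an unadjusted p of 0.0613 and an adjusted p of 0.562 in edgeR. The value was 0.64 without control replicate 3 and 0.63 by library size alone, and over all alternatives it ran from 0.43 (limma on log2(CPM + 1), a scale that lowers the fold change of scarce miRNAs) to 0.86.

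hsa-miR-181d-5p, the other guide of the chromosome 19 cluster, was at 6.16, 5.13 and 5.11 CPM with hsa_circ_0098181 and at 4.98, 4.47 and 4.50 CPM in the controls. These groups too did not overlap, but by library size alone they did, since overexpression replicate 2 then had 4.72 CPM and control replicate 1 5.01 CPM. The log2 fold change was 0.23 (SE 0.20, interval -0.21 to 0.67, edgeR adjusted p = 0.698), and 0.19 without control replicate 3. It was 0.13 without overexpression replicate 1 and 0.12 by library size alone.

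The passenger arms of miR-181a differed less between the libraries than the guide did, a gap that was smaller without control replicate 3. By library size the coefficient of variation was 14.1% for hsa-miR-181a-5p, 5.68% for hsa-miR-181a-3p and 6.37% for hsa-miR-181a-2-3p. Without control replicate 3 it was 6.26%, 5.28% and 3.67%. hsa-miR-181a-3p, from chromosome 1, was at 235, 276 and 242 CPM with hsa_circ_0098181 and at 256, 254 and 247 CPM in the controls. The controls, including replicate 3, were within the range of the overexpression libraries, and the log2 fold change was -0.0049 (SE 0.10, interval -0.22 to 0.21, edgeR adjusted p = 0.985). By library size alone hsa-miR-181a-3p was at 234, 254 and 234 CPM against 257, 262 and 268 CPM, so that every overexpression library lay below every control, with a log2 fold change of -0.12 (edgeR adjusted p = 0.642). hsa-miR-181a-2-3p, from chromosome 9, was at 262, 274 and 269 CPM with hsa_circ_0098181 and at 237, 249.9 and 266 CPM in the controls. Here control replicate 3 overlapped the overexpression group, and the log2 fold change was 0.097 (SE 0.097, interval -0.11 to 0.31, edgeR adjusted p = 0.721). With control replicate 3 left out the values were -0.040 for hsa-miR-181a-3p and 0.12 for hsa-miR-181a-2-3p, and without control replicate 1 the latter was 0.047. The direction of hsa-miR-181a-3p turned without overexpression replicate 1 (0.037) or 3 (0.030), and that of hsa-miR-181a-2-3p by library size alone (-0.021).

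Of the 5 relatives, 3 passed the filter on low counts and 0 passed the threshold. hsa-miR-181b-2-3p, the chromosome 9 passenger arm of miR-181b, was at 15.2, 13.6 and 14.1 CPM with hsa_circ_0098181 and at 11.0, 11.5 and 9.39 CPM in the controls, so that its groups did not overlap. Its log2 fold change was 0.42 (SE 0.15, interval 0.10 to 0.75), with an unadjusted p of 0.0136 and an adjusted p of 0.321 in edgeR, and 0.33 without control replicate 3 (adjusted p = 0.215). Its chromosome 1 counterpart hsa-miR-181b-3p, with the same seed, had a log2 fold change of 0.099 (SE 0.12, edgeR adjusted p = 0.781), and hsa-miR-181c-3p of -0.044 (SE 0.31, edgeR adjusted p = 0.949). Without control replicate 3 the values were 0.052 for hsa-miR-181b-3p and -0.070 for hsa-miR-181c-3p. By library size alone 2 of the 3 relatives tested were lower, with a median of -0.016. On that scale hsa-miR-181b-3p averaged 33.8 CPM with hsa_circ_0098181 and 34.2 CPM in the controls.

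**Figure D1:**
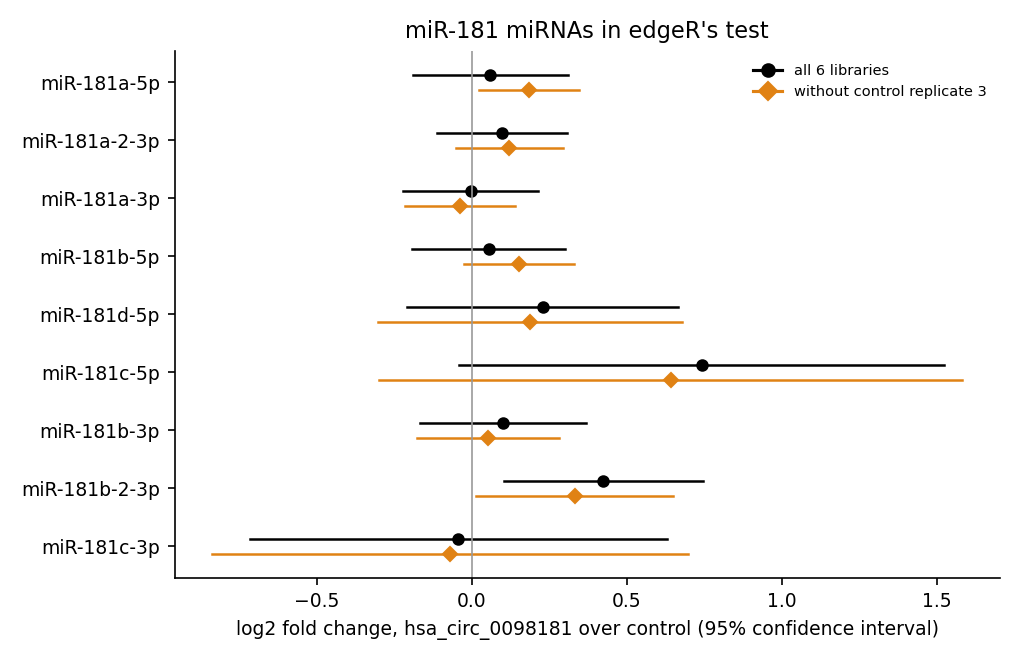
Log2 fold change of overexpression over control with its 95% confidence interval in edgeR, for the 6 members and 3 other miR-181 arms, with all 6 libraries (black) and without control replicate 3 (orange). For all 6 members the interval over all libraries includes 0, and the scarce miR-181c-5p has the widest interval of the members.

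Ratios within a library do not depend on its scaling, and 6 of them were compared by two-sided exact permutation tests, in which 3 against 3 samples cannot give a p below 0.1. The proportion between the abundant guides was the steadiest. hsa-miR-181a-5p was between 2.03 and 2.15 times hsa-miR-181b-5p in all 6 libraries, and the log2 ratio differed between the groups by 0.0099 (exact permutation p = 0.8, adjusted p = 0.96 over the 6 ratios). Control replicate 3, where both guides were highest, kept this proportion with a log2 ratio of 1.11.

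Within the chromosome 19 cluster, the log2 ratio of hsa-miR-181c-5p to hsa-miR-181d-5p was -1.58, -1.70 and -1.52 with hsa_circ_0098181 and -2.24, -1.82 and -2.24 in the controls. The groups did not overlap, and the difference of 0.50 reached the smallest p the exact permutation test allows (p = 0.1, adjusted p = 0.3). The log2 ratio of hsa-miR-181c-5p to the opposite arm hsa-miR-181c-3p was 0.00, -0.85 and 0.10 with hsa_circ_0098181 and -1.03, -0.90 and -1.22 in the controls. This difference of 0.80 gave the same values (exact permutation p = 0.1, adjusted p = 0.3). Both ratios share the few counts of hsa-miR-181c-5p and are not independent of each other. The differences were 0.43 and 0.72 without control replicate 3.

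The ratios among the arms of miR-181a overlapped between the groups when all libraries were used. The difference in log2 ratio was 0.079 for hsa-miR-181a-5p over hsa-miR-181a-3p (exact permutation p = 0.7, adjusted p = 0.96) and -0.027 for hsa-miR-181a-5p over hsa-miR-181a-2-3p (exact permutation p = 1.0, adjusted p = 1.0). For hsa-miR-181a-3p over hsa-miR-181a-2-3p it was -0.11 (exact permutation p = 0.2, adjusted p = 0.4). Control replicate 3 had the highest ratio of guide to passenger for both passenger arms (1.23 and 1.13), and without it the 3 differences were 0.23, 0.064 and -0.16. The groups then did not overlap in any of the 3 ratios, with an exact permutation p of 0.2 for each, the smallest that 3 against 2 samples can give.

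Over log2 CPM with TMM factors in the 6 libraries, Pearson's r was 0.985 between hsa-miR-181a-5p and hsa-miR-181b-5p and 0.781 between hsa-miR-181a-5p and hsa-miR-181a-2-3p, but -0.18 between hsa-miR-181a-5p and hsa-miR-181a-3p. Without control replicate 3 (5 libraries) these were 0.970, 0.933 and -0.093. With the scarce guides, r of hsa-miR-181a-5p depended on that library: it was 0.054 with hsa-miR-181c-5p and 0.042 with hsa-miR-181d-5p over 6 libraries, and 0.917 and 0.629 without it. Only hsa-miR-181a-3p had an r below 0 with hsa-miR-181a-5p both with and without control replicate 3. These are descriptions over libraries that share their depth, scaling and group. Among 304 other miRNAs with a mean of at least 10 CPM, the profiles most like hsa-miR-181a-5p were those of hsa-miR-146b-5p (r = 0.976), hsa-miR-501-3p (0.960) and hsa-miR-193b-5p (0.959). For hsa-miR-181b-5p they were the same miRNAs, at 0.950, 0.951 and 0.927. Each of them was highest in control replicate 3, and without that library r with hsa-miR-181a-5p was 0.960, 0.911 and 0.913 over 5 libraries.

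Other miRNAs tied to stem-like liver cancer cells, mostly of the miR-17-92 cluster, had a median log2 fold change of -0.10 beside 0.077 for the members, and of -0.21 by library size alone and -0.29 without control replicate 3. Of 9 in the list 8 were tested, 0 passed the threshold in edgeR, and 3 were higher and 5 lower. Without control replicate 3, 6 of them passed in edgeR, beside 9.91% of all miRNAs: miR-17-5p, miR-18a-5p, miR-19a-3p, miR-19b-3p and miR-20a-5p were lower, and miR-92a-3p was higher at 0.32. All 6 can be made from the miR-17-92 cluster, so they are not separate observations. In miR-19a-3p the log2 fold change was -0.30 with all libraries and -0.62 without control replicate 3. Of 8 miRNAs of mature hepatocytes, 0 passed with all libraries (6 higher, 2 lower, median 0.11, or 4 lower and a median of -0.0057 by library size alone), and without control replicate 3 the median was 0.0055 and miR-148a-3p passed at -0.21 (edgeR adjusted p = 0.00658).

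Markers of other cell types were checked because miR-181a is also a lymphoid miRNA. With TMM factors, the 6 blood and lymphoid markers summed to 14.8, 14.5 and 14.2 CPM with hsa_circ_0098181 and to 17.2, 18.9 and 16.2 CPM in the controls. Of the 3 tested, 2 were higher and 1 lower, with a median log2 fold change of 0.45. The median was 0.29 without control replicate 3 and 0.34 by library size alone. Most of the sum was miR-142-3p, at 11.7 CPM on average by library size. Its log2 fold change was -0.50 (edgeR adjusted p = 0.314), and -0.57 without control replicate 3 (edgeR adjusted p = 0.0182), where it passed. The log2 fold change was 0.46 for miR-150-5p (1.36 CPM on average by library size) and 0.45 for miR-223-3p (1.77 CPM by library size). Without control replicate 3 it was 0.75 for miR-150-5p and 0.29 for miR-223-3p. By library size, muscle markers summed to 1.45 to 2.24 CPM, and neural markers to 98.6 to 149 CPM, led by miR-9-5p at 123 CPM. Both neural markers were higher with TMM factors (median log2 fold change 0.21, with and without control replicate 3), but by library size alone 1 was lower and the median was 0.092, and 0 passed in edgeR. With TMM factors, mesenchymal and stellate markers summed to 85.8, 96.3 and 95.7 CPM with hsa_circ_0098181 and to 95.2, 96.6 and 96.8 CPM in the controls, so that the groups overlapped, whereas by library size they did not (85.5, 88.7 and 92.5 against 95.7, 99.7 and 105 CPM). All 3 tested were lower, and 0 passed in edgeR. Their median log2 fold change was -0.30, or -0.45 without control replicate 3 and -0.41 by library size alone. Most of the sum was miR-143-3p, at 86.0 CPM on average by library size (log2 fold change -0.023), and miR-214-3p had 3 counts in all. Endothelial markers were led by miR-126-3p, at 3180.2 CPM on average by library size, although Huh7 is a hepatoma line. With TMM factors they summed to 4295, 4716 and 4320.5 CPM with hsa_circ_0098181 and to 4272, 4066 and 3504 CPM in the controls, without overlap. By library size the groups overlapped (3811 to 4341 CPM). Both were higher (median log2 fold change 0.18, or 0.049 without control replicate 3), and 0 passed in edgeR. Their part in the levels of the members was not tested.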

How the data were processed

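The miRNAs of 6 Huh7 samples were sequenced, and samples were grouped by their titles. The authors deposited counts, the reads assigned to each mature miRNA without normalization, and TPM values, which equalled the count scaled to a library of 1000000 to within 0.00303 and so carry no length correction. The submitters' processing notes name hg38, TopHat2 2.0.9, Bowtie and TopHat without their roles. Trimming, the miRNA annotation and the handling of reads with several matches are not given in the sources used here, and they bear most on guides that differ by 1 base. The table held 0 columns of other samples.

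Counts were tested in R 4.3.3 with edgeR 4.0.16. miRNAs were kept by filterByExpr (minimum count 10, minimum total 15), which left 552 of 1366 miRNAs with a count, holding 99.98% of the counts, and all 6 members. TMM factors and the two-sided quasi-likelihood test with group as the only term followed, with Benjamini-Hochberg adjustment and a threshold of 0.05. The method was also run on simulated data, whose outcome is not given here and supports no result. Log2 ratios used counts plus 0.5, and profiles were compared over log2(CPM + 1). Totals ran from 7144798 to 10786295 counts, and no library pair agreed within sampling noise. Limits for 0 counts cover counting error only.

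Alternatives were DESeq2 1.42.0, limma 3.58.1 on log2 CPM with 1 or 0.1 added, scaling by library size with and without the most abundant miRNA or by upper-quartile factors, no filter on low counts or one of at least 10 per sample, 5 added to the counts of a ratio, deposited TPM for the order, a replicate block, and leaving out each sample. Permutation tests used scipy 1.17.1 in Python 3.11.15. The miRNAs named were the members, their relatives, the stem-like, hepatocyte and cell type marker lists, and the 3 profiles most like each abundant guide. Members and lists were chosen with earlier results of these data known.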

Additional observations from a re-analysis of the deposited data

How the results depend on the processing

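0 members passed the threshold under any alternative run. Of 89 alternative fold changes of members, 80 kept their direction and 9 reversed, and of 48 alternative ratios 44 kept it and 4 reversed. The order of levels was the same with each sample left out and in deposited TPM, the alternatives run for it. Deposited TPM holds the same scaled counts, so its order was bound to be the same and is no separate check. By library size alone, edgeR called 3 of all miRNAs, the members' median was -0.043, and the log2 fold changes reversed to -0.064 (miR-181a-5p), -0.067 (miR-181b-5p) and -0.021 (miR-181a-2-3p). By library size without the most abundant miRNA, miR-181a-5p was at -0.024 and miR-181b-5p at -0.028. Without a filter 6 of all 1366 miRNAs passed. Leaving out 1 sample at a time gave 0 to 56 calls over all miRNAs (56 without control replicate 3 and 0 without any other) and log2 fold changes of -0.037 to 0.18 for miR-181a-5p, -0.023 to 0.15 for miR-181b-5p and -0.082 to 0.037 for miR-181a-3p. The differences in log2 ratio then ran from -0.011 to 0.033 (miR-181a-5p to miR-181b-5p), -0.019 to 0.23 (miR-181a-5p to miR-181a-3p) and -0.076 to 0.064 (miR-181a-5p to miR-181a-2-3p). The cause was not tested. Adjusted p-values over the alternatives ran from 0.153 to 0.999 for miR-181a-5p and from 0.474 to 0.847 for miR-181c-5p, which could not be tested with at least 10 counts in every sample. The deviations of same-numbered samples from their group means had an r of -0.11, 0.16 and 0.21 over 192 miRNAs, not always the best match. With 3 libraries per group, these values cannot decide whether the numbers pair the samples. With a replicate block, 0 miRNAs passed (42 at an unadjusted p under 0.05), the members' median was 0.084, and no call changed. Depth limits miR-181c-5p most, at 7 to 16 counts per library.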
